A study of Homo sapiens with 6 samples.

Results

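The genes analysed here encode the subunits of the mitochondrial respiratory chain and of ATP synthase that are made from the nuclear genome. Members were rows of the deposited count table chosen by symbol. The symbols were NDUFA, NDUFB, NDUFC, NDUFS or NDUFV followed by a number and nothing else, and SDHA, SDHB, SDHC and SDHD. Symbols that begin with UQCR, COX4 to COX8, or ATP5 were taken as well. Read-through symbols and numbered pseudogenes were left out. This gave 89 of the 57905 rows, for 85 symbols, because NDUFA7, NDUFB8, SDHD and UQCR11 were each listed with 2 identifiers. The rule itself reads names only. Complex I had 39 rows, complex II 5, complex III 9, complex IV 17 and complex V, which is ATP synthase, 19. Of these, 78 had enough counts for edgeR's default filter, with 37 in complex I, 4 in complex II, 8 in complex III, 12 in complex IV and 17 in complex V, and 11 had too few counts to be tested.

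RNA was collected from HCT116, a human colorectal carcinoma line with wild-type p53, that had been given 10 µM Nutlin-3a for 1 h (Nut 1h) or 10 h (Nut 10h). Nutlin-3a keeps p53 from being bound by its inhibitor MDM2. The control cells (Nut 0h) received DMSO, the solvent of the drug. Each condition had 2 biological replicates, and RNA-seq reads were counted per gene in 6 libraries of 1 cell line, with no engineered allele named in the labels.

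The respiratory chain of the inner mitochondrial membrane passes electrons from NADH (complex I) and succinate (complex II) through ubiquinone to complex III, then through cytochrome c to complex IV, which reduces oxygen. Complexes I, III and IV pump protons, and ATP synthase uses the proton gradient to make ATP. Most subunits are encoded in the nucleus and imported, while a few core subunits of complexes I, III, IV and V are encoded in the mitochondrial genome, so that the complexes are built from transcripts of both genomes.

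Between 26068076 and 35473485 reads were assigned to genes per library. MDM2, a p53 target, had normalized counts, which are counts scaled to a common library size by the TMM method, of 1688 and 2083 with vehicle, 8694 and 8500.1 after 1 h, and 22633 and 27946 after 10 h. CDKN1A, the p53 target that encodes the cell cycle inhibitor p21, had 10629 and 9286 with vehicle, 9837 and 10726 after 1 h, and 145531 and 139682 after 10 h. For CDKN1A the log2 fold change after 10 h was 3.84 (SE 0.11, adjusted p = 1.03e-10). The 5 epithelial markers EPCAM, KRT8, KRT18, KRT19 and CDH1 summed to between 111553 and 245787 normalized counts per library. The summed level of 4 leukocyte markers was between 2.01 and 21.3, and that of the endothelial markers CDH5 and VWF was at most 22.2. The 4 fibroblast markers summed to between 787 and 1405, nearly all of it COL1A1, with DCN at 0 in every library.

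Within the set, levels are compared in the 2 Nut 0h libraries as normalized counts per kb of a representative transcript of each gene, a length on which the order depends. ATP5B (now ATP5F1B), the catalytic beta subunit of ATP synthase, stood highest at 20891. It was followed by 2 subunits of complex IV, COX6B1 at 14213 and COX4I1 at 13702, whose libraries overlapped, and by the delta subunit of ATP synthase, ATP5D (ATP5F1D), at 11968. In complex I the highest values were those of NDUFB10 (9978) and NDUFB7 (8854), accessory subunits of the membrane arm. Over all exon bases of the gene in place of the transcript, their order turned, with 8854 for NDUFB7 and 6476 for NDUFB10, and COX8A, at 10552, stood above COX6B1, at 5066, while ATP5B stayed highest at 16419.6. In complex II the iron-sulfur subunit SDHB led with 4459.5, and in complex III the hinge protein UQCRH with 6459, which over all exon bases (2586) was below UQCR10 (3218). ATP synthase has 3 genes for the same mature subunit c, which forms its proton-driven ring: ATP5G2 stood at 10262, ATP5G1 at 8079 and ATP5G3 at 2538.

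The lowest tested members were COX6B2 (14.3), ATP5S (40.7), NDUFA7 (41.1), NDUFV2 (51.6), NDUFA9 (51.9) and NDUFA13 (149.7). Of these, COX6B2, NDUFA7, NDUFV2 and NDUFA13 share over 20% of their exon bases with another gene on the same strand, and the sources used here do not state how reads in shared exons or reads from several places were counted. The levels of these members are therefore uncertain, and the part of shared exons in them was not tested. NDUFA9 had 433 and 435 normalized counts with vehicle, and its low value per kb comes with a representative transcript of 8356 bases. ATP5S (DMAC2L) and ATP5SL (DMAC2) match the naming rule by older symbols and are not subunits of ATP synthase. NDUFA4 carries a complex I name, by which it is grouped here, but is a subunit of complex IV.

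**Figure D1:**
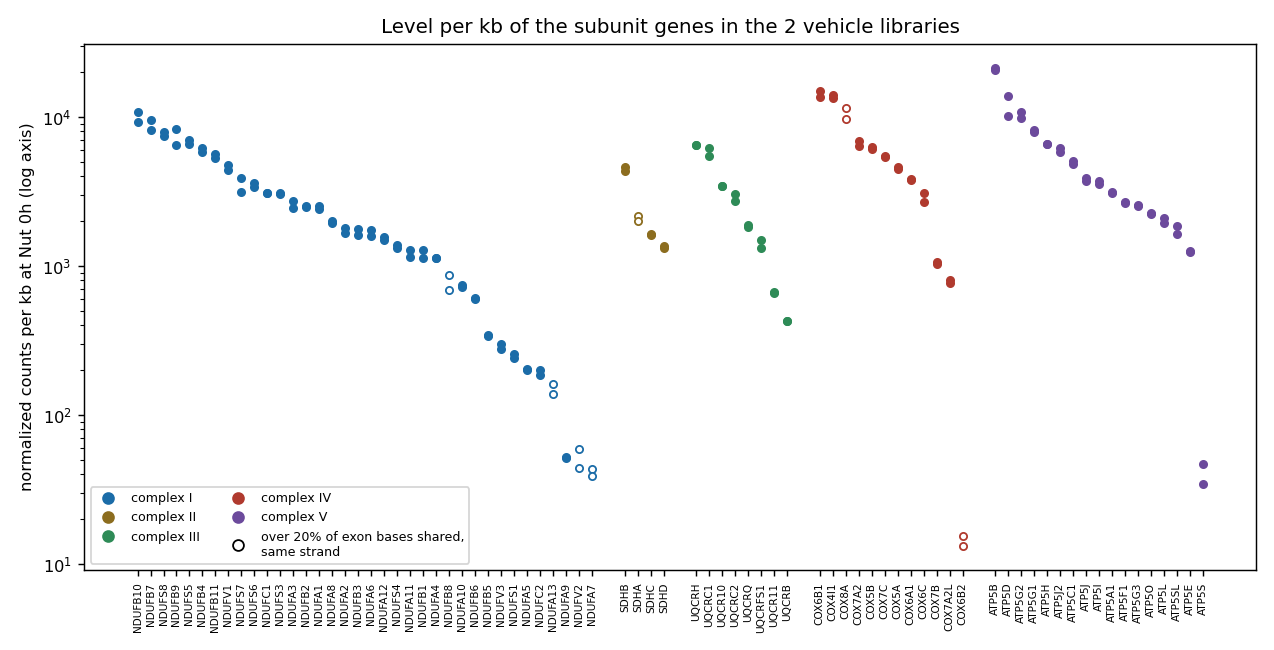
Level of the tested members reported by name in the 2 Nut 0h libraries (points) as normalized counts per kb of the representative transcript on a log axis, ordered by level within complexes I to V. Open points mark members with over 20% of exon bases shared with another gene on the same strand, and the highest member was ATP5B at 20891.

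The promoters of these genes are known for binding sites of NRF1, of the ETS factor GABPA and of YY1. The windows from 250 bases before to 50 bases after the gene start were taken from RefSeq (GRCh38.p14) for the 64 of 78 tested members that matched by symbol, and both strands were searched for fixed letters. The NRF1 letters GCGCNTGCG, where N is any base, were found in 21 members (32.8%) and in 8.05% of all 27305 promoters of the same length. The ETS letters CCGGAAG were found in 19 members (29.7%) and in 10.7% of all promoters, and the YY1 letters ATGGCGGC in 12 members (18.8%) and in 3.21% of all promoters. The 3 sets of letters can overlap, and a match is a description of the sequence only. The windows below belong to 4 members on which the later comparisons turn, and show one with an NRF1 match, one with an ETS match, one with an ETS and a YY1 match and one with none. Capitals mark the matched letters, read from 5′ to 3′ on the strand of the gene, where a match on the opposite strand appears as its reverse complement.
UQCRFS1 (chr19:29213102-29213401, minus strand, GRCh38.p14, NRF1 letters): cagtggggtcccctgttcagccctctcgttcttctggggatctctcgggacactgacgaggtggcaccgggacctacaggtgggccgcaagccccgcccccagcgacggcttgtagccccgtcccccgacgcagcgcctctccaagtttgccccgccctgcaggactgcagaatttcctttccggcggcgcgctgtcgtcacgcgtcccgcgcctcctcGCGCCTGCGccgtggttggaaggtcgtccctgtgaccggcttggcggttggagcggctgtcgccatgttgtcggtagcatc
COX8A (chr11:63974370-63974669, plus strand, GRCh38.p14, ETS letters reversed): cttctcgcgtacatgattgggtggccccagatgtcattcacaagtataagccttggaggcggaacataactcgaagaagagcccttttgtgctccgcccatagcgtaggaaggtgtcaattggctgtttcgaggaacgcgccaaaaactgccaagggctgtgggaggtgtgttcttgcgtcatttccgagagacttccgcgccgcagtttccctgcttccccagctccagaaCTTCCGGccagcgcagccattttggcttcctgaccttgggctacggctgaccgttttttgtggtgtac
NDUFS1 (chr2:206159395-206159694, minus strand, GRCh38.p14, ETS letters reversed, then YY1 letters reversed): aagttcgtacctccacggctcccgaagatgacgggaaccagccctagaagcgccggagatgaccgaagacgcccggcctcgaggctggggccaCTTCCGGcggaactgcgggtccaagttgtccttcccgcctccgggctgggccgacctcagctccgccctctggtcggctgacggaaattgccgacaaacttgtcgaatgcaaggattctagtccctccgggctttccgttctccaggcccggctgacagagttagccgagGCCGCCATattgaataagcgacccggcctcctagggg
NDUFV3 (chr21:42893059-42893358, plus strand, GRCh38.p14, no match): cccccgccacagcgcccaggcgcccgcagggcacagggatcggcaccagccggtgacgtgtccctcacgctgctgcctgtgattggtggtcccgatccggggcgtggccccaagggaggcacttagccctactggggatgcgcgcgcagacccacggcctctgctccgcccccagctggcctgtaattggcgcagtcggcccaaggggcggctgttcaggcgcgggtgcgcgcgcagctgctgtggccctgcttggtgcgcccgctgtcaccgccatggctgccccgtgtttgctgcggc

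The first comparison addressed which of these transcripts differed after 1 h of Nutlin-3a. Of the 78 tested members, 40 were lower at Nut 1h (51.3%) and 17 were higher (21.8%), by edgeR's quasi-likelihood test with 0.05 as the limit of the adjusted p. Among all 16565 tested genes, 32.3% were lower and 34.5% were higher. The median log2 fold change (log2FC) was -0.29 over the members and 0.045 over all tested genes, and single members ranged from -2.10 to 1.23. The Nut 1h libraries lay wholly below the Nut 0h libraries for 44 members and wholly above them for 23, against 40.6% and 44.2% of all tested genes. Together the members made up 0.875% and 0.867% of all counts with vehicle, 0.710% and 0.737% after 1 h and 0.864% and 0.827% after 10 h. In bulk RNA, fewer cells of a kind and less RNA per cell cannot be told apart.

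**Figure D2:**
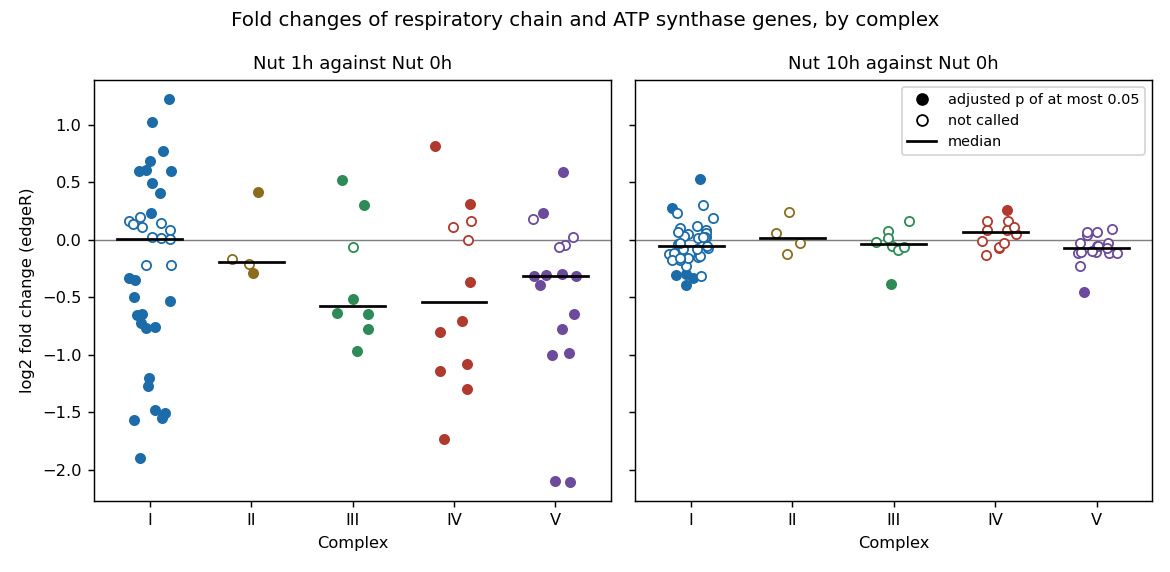
Log2 fold change from edgeR of each tested member at Nut 1h and at Nut 10h against Nut 0h, by complex, with filled points at an adjusted p of at most 0.05 and lines at the median of each complex. At Nut 1h the members spread from -2.10 to 1.23, and at Nut 10h from -0.46 to 0.53.

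In complex I, 16 of 37 tested members fell (43.2%) and 10 rose (27.0%) at Nut 1h, with a median of 0.011. The falls ranged from -1.90 to -0.33 and the rises from 0.24 to 1.23. Of all tested genes 32.3% fell and 34.5% rose, and the counts of subgroups and of the other complexes below stand beside the same shares. The 11 subunits named NDUFS and NDUFV, which include those that carry the flavin and the iron-sulfur clusters, split into 4 that rose and 5 that fell. The accessory subunits named NDUFA split into 2 and 4 of 13, and those named NDUFB and NDUFC into 4 and 7 of 13. NDUFB7 (chr19:14676890-14682878, minus strand, GRCh37), an accessory subunit on the intermembrane side of the membrane arm, had normalized counts of 5095 and 4379 with vehicle, 1199.9 and 1338 after 1 h, and 4488 and 3134 after 10 h. Both Nut 1h libraries lay far below the other 4, which overlapped. The log2FC of NDUFB7 after 1 h was -1.90 (SE 0.15, adjusted p = 2.33e-07). NDUFA5 (chr7:123177051-123197958, minus strand), an accessory subunit of the ubiquinone module, went the other way, with 1120.0 and 1097 with vehicle, 2319 and 2184 after 1 h, and 1094 and 1213 after 10 h. The log2FC of NDUFA5 was 1.02 (SE 0.10, adjusted p = 9.48e-07), with 2 libraries well above the remaining 4.

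Among the subunits with redox centres, NDUFV1 (chr11:67373124-67380025, plus strand), which binds NADH and the flavin, had 7415 and 6890.0 with vehicle, 4005 and 4449 after 1 h, and 6858 and 5978 after 10 h. It fell at Nut 1h, with a log2FC of -0.76 (SE 0.10, adjusted p = 1.64e-05). NDUFS1 (chr2:206979541-207024233, minus strand), the largest subunit and a carrier of iron-sulfur clusters, had 2830.4 and 2989 with vehicle, 4038 and 4159 after 1 h, and 2780.5 and 3157 after 10 h. Its Nut 1h libraries were the highest of the 6, with a log2FC of 0.49 (SE 0.09, adjusted p = 0.000379). NDUFV2 had the highest fitted value, 1.23, at low normalized counts of 37.7 and 50.7 with vehicle, 121 and 84.3 after 1 h, and 40.6 and 49.3 after 10 h and with shared exons.

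In complex II, which oxidises succinate, 1 of 4 members fell and 1 rose, with a median of -0.19. SDHA (chr5:218418-257197, plus strand), the flavoprotein, had 5834 and 5394 with vehicle, 4429.5 and 4743 after 1 h, and 6058 and 5663 after 10 h, so that the Nut 1h libraries were the lowest. The log2FC of SDHA after 1 h was -0.29 (SE 0.09, adjusted p = 0.013). SDHD (chr11:111957548-111990739, plus strand), a membrane anchor, had 1775 and 1831 with vehicle, 2509 and 2316 after 1 h, and 1665 and 1872 after 10 h and a log2FC of 0.42 (SE 0.10, adjusted p = 0.00157). SDHB had 4635 and 4417 with vehicle, 3773 and 4054 after 1 h, and 4325 and 4008 after 10 h. The value at Nut 1h was -0.21 and did not pass in edgeR (adjusted p = 0.0573), but did in DESeq2 (adjusted p = 0.042). Over 20% of the exon bases of SDHA are shared with another gene on its strand.

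In complex III, 5 of 8 members fell and 2 rose, with a median of -0.58 and falls from -0.97 to -0.51. UQCR11 (chr19:1597168-1605472, minus strand), a small subunit, had 858 and 865 with vehicle, 405 and 477 after 1 h, and 877 and 746 after 10 h, and the Nut 1h libraries stood apart below the others. The log2FC of UQCR11 after 1 h was -0.97 (SE 0.12, adjusted p = 7.92e-06). UQCRC1 (chr3:48636435-48648409, minus strand), a core protein of the matrix side, had 9807 and 8734 with vehicle, 5210.1 and 5618 after 1 h, and 9832 and 7975 after 10 h and a log2FC of -0.78 (SE 0.11, adjusted p = 3.12e-05). The Rieske iron-sulfur protein UQCRFS1 (chr19:29696227-29704058, minus strand), whose promoter window holds the NRF1 letters above, had 4631 and 4087 with vehicle, 2898 and 3217 after 1 h, and 3357 and 3330.5 after 10 h. Both treated conditions lay below Nut 0h. The log2FC of UQCRFS1 after 1 h was -0.51 (SE 0.10, adjusted p = 0.000356). UQCRB (chr8:97235175-97247774, minus strand), a subunit at the ubiquinone site, rose, with 3623 and 3599 with vehicle, 4986 and 5388 after 1 h, and 4070.2 and 4028 after 10 h and a log2FC of 0.52 (SE 0.09, adjusted p = 0.000139).

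In complex IV, 7 of 12 members fell and 2 rose, with a median of -0.54 and falls from -1.73 to -0.36. COX8A (chr11:63742092-63744015, plus strand), a small membrane subunit with the ETS letters in its window, had 5663 and 4763 with vehicle, 1511 and 1632 after 1 h, and 5556 and 4646 after 10 h. The Nut 1h libraries held less than any other library, while those of Nut 0h and Nut 10h overlapped. The log2FC of COX8A after 1 h was -1.73 (SE 0.12, adjusted p = 9.37e-08). Of its exon bases, 35.4% are shared with another gene on the same strand, so that its level is uncertain. COX6B1 (chr19:36139225-36149684, plus strand), which faces the intermembrane space and links the monomers of the dimer, had 7278 and 6593 with vehicle, 2719 and 2925 after 1 h, and 7137 and 6078 after 10 h and a log2FC of -1.30 (SE 0.11, adjusted p = 2.95e-07). COX5A (chr15:75212132-75230424, minus strand), on the matrix side, had 5258 and 5359 with vehicle, 3219.6 and 3275 after 1 h, and 5094 and 4593 after 10 h and a log2FC of -0.71 (SE 0.09, adjusted p = 1.24e-05), and COX6A1 and COX7A2 also fell, by log2FC values of -0.80 and -0.36. COX6C (chr8:100885428-100905935, minus strand) rose, with 1984 and 2284 with vehicle, 3512 and 4006 after 1 h, and 2228 and 2289 after 10 h and a log2FC of 0.82 (SE 0.10, adjusted p = 9.29e-06). COX4I1, the subunit through which ATP is known to regulate the complex, had 10659.5 and 10249 with vehicle, 9955 and 10976 after 1 h, and 10896 and 9827 after 10 h with a fitted difference of 0.0014 (SE 0.10), and its groups overlapped. COX7B had 0.17 and did not pass.

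In ATP synthase, 11 of 17 members fell and 2 rose, with a median of -0.31 and falls from -2.10 to -0.29. ATP5D (chr19:1241745-1244824, plus strand), the delta subunit of the central stalk, had 13737 and 10079 with vehicle, 2532 and 3013 after 1 h, and 9890.2 and 7466 after 10 h. The Nut 1h libraries were far below the rest. The log2FC of ATP5D after 1 h was -2.10 (SE 0.16, adjusted p = 2.01e-07). ATP5I (ATP5ME), subunit e of the membrane part, had 1076 and 1118 with vehicle and 236 and 278 after 1 h, with a log2FC of -2.10. It was named after its values were seen, since it lay beside ATP5D as the other member at the low end, and 61.3% of its exon bases overlap MYL5 on the opposite strand. Each of the 3 genes of subunit c fell. ATP5G2 had 6763 and 6207 with vehicle, 3253 and 3289.8 after 1 h, and 7087 and 6252 after 10 h, with a log2FC of -0.99 (SE 0.10, adjusted p = 1.27e-06). ATP5G1 had 5142 and 5296 with vehicle, 2952 and 3136 after 1 h, and 4982 and 4663 after 10 h, with a log2FC of -0.78 (SE 0.09, adjusted p = 4.97e-06). ATP5G3 had 6649 and 6483 with vehicle, 5132 and 5432 after 1 h, and 6737 and 6137 after 10 h, with a log2FC of -0.31 (SE 0.09, adjusted p = 0.00787). In all 3 the Nut 1h libraries were the lowest of the 6.

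The 2 subunits that alternate in the catalytic head had smaller fitted differences. ATP5B (chr12:57031959-57039768, minus strand) had 37387 and 36107 with vehicle, 28915 and 31004 after 1 h, and 35044 and 32715 after 10 h and fell, with a log2FC of -0.29 (SE 0.09, adjusted p = 0.0125). ATP5A1 (ATP5F1A), the alpha subunit (chr18:43660214-43684300, minus strand), had 17632 and 17983 with vehicle, 19528 and 20985 after 1 h, and 16989 and 17389.5 after 10 h, and its log2FC of 0.19 did not pass (adjusted p = 0.0832 by edgeR). The 2 members that rose were ATP5F1 (ATP5PB), subunit b of the peripheral stalk, at 0.23, and ATP5S at 0.59, which is not a subunit.

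**Figure D3:**
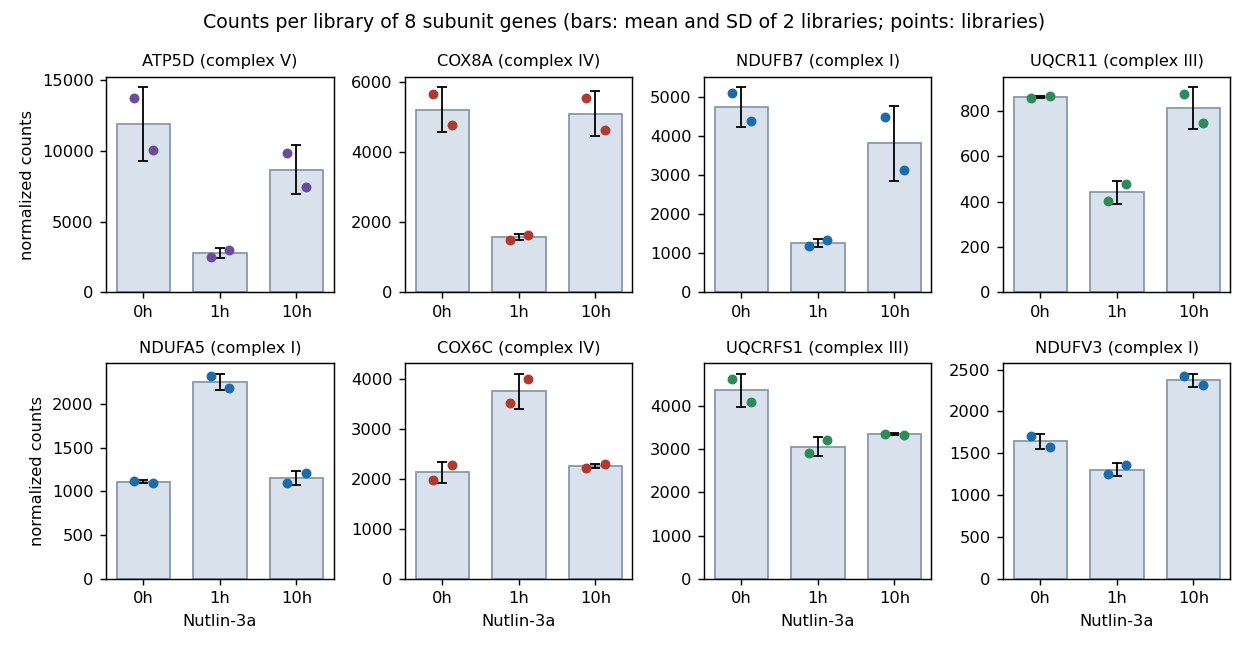
Normalized counts of 8 members in each of the 6 libraries (points), with bars and whiskers at the mean and SD of the 2 libraries per condition, on axes that start at 0. ATP5D, COX8A, NDUFB7 and UQCR11 are low at Nut 1h and NDUFA5 and COX6C high, while UQCRFS1 is low in both treated conditions and NDUFV3 high at Nut 10h.

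The direction at Nut 1h went with the GC content of the transcript. Over the 78 tested members the fold change and the GC content had a Pearson r of -0.73, and over the 16137 tested genes with a known GC content it was -0.70. These are correlations across genes of the same libraries, and genes are not independent replicates. Of the 28 members with under 45% GC, 14 rose and 5 fell, of the 33 with 45 to 55% GC, 3 rose and 21 fell, and of the 17 with over 55% GC, 14 fell and 3 did not pass. ATP5D, with 69.5% GC, and NDUFA5, with 34.6% GC, were the extremes of this range. The source of this trend was not tested.

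Within each GC class the members were lower than the tested genes of that class. Under 45% GC, 17.9% of members and 2.03% of all genes fell, 50% and 74.5% rose, and the medians were 0.20 and 0.66. From 45 to 55% GC, 63.6% of members and 23.9% of all genes fell and 9.09% and 23.9% rose, with medians of -0.35 and 0.016. Over 55% GC, 82.4% of members and 74.7% of all genes fell and 0% and 2.31% rose, with medians of -1.14 and -0.86. The fit was then repeated with the smooth trend of each library on GC content taken out, here called the GC-content offset. With it, 46 members fell (59.0%) and 6 rose (7.69%), against 25.1% and 19.1% of all tested genes. The median was -0.46 over the members and -0.030 over all tested genes. The p53 targets moved as well. The log2FC of CDKN1A at Nut 1h was 0.046 without the offset and 0.61 with it (adjusted p = 1.17e-05 by edgeR). For MDM2 it was 2.19 without the offset and 1.46 with it.

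With the GC-content offset, the 6 members that rose were all in complex I, where 14 fell, and in complexes II, III, IV and V 3 of 4, 6 of 8, 9 of 12 and 14 of 17 members fell. The members that rose included NDUFA13 (1.05), which shares exons and had overlapping libraries. Its normalized counts were 71.5 and 84.5 with vehicle and 92.3 and 75.5 after 1 h. NDUFA1 (0.28) and NDUFB1 (0.31) also rose. With the trend on transcript length taken out as well, these 2 had 0.048 and 0.022 and did not pass. COX8A had a smaller log2FC of -1.11 (adjusted p = 3.15e-09 by edgeR) and COX6B1 one of -1.05. COX5A, UQCRFS1 and ATP5G3 had larger falls than without the offset, at -1.09, -1.03 and -1.10, and ATP5G2 and ATP5G1 smaller ones, at -0.62 and -0.40. ATP5D moved to -0.38 and NDUFB7 to -0.65, both still past the threshold, while ATP5I, at -1.77, was the lowest of the tested members with the offset. The rises of NDUFA5 (0.026) and COX6C (0.14) no longer passed, nor did the falls of UQCRC1 (-0.12) and SDHA (-0.13). Nor did the rise of ATP5S (0.0073) or the fall of NDUFB10 (-0.016). For COX7A2L, SDHD, UQCRB and ATP5F1 the direction turned, to -0.46, -0.29, -0.23 and -0.50, each past the threshold, and NDUFS1 (-0.11) and NDUFV1 (0.10) also changed sign without passing. COX7B and SDHB, which had not passed, fell with the offset, at -0.46 and -0.55.

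The transcripts of these genes are also short, with a median length of 876 bases over the tested members and 2799 over all tested genes. With the trends on GC content and on length both taken out, a setting added after the data had been seen, 50 members fell and 4 rose, against 24.6% and 20% of all tested genes, and the median was -0.45. Cytosolic ribosomal protein genes, another set of short and abundant transcripts with a median length of 785 bases, had 40 of 78 tested genes that fell and 16 that rose before any offset, with a median of -0.31. With the GC-content offset 49 of them fell and 8 rose. The lower counts at Nut 1h were thus measured in both sets, and no test of a difference between them was made.

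**Figure D4:**
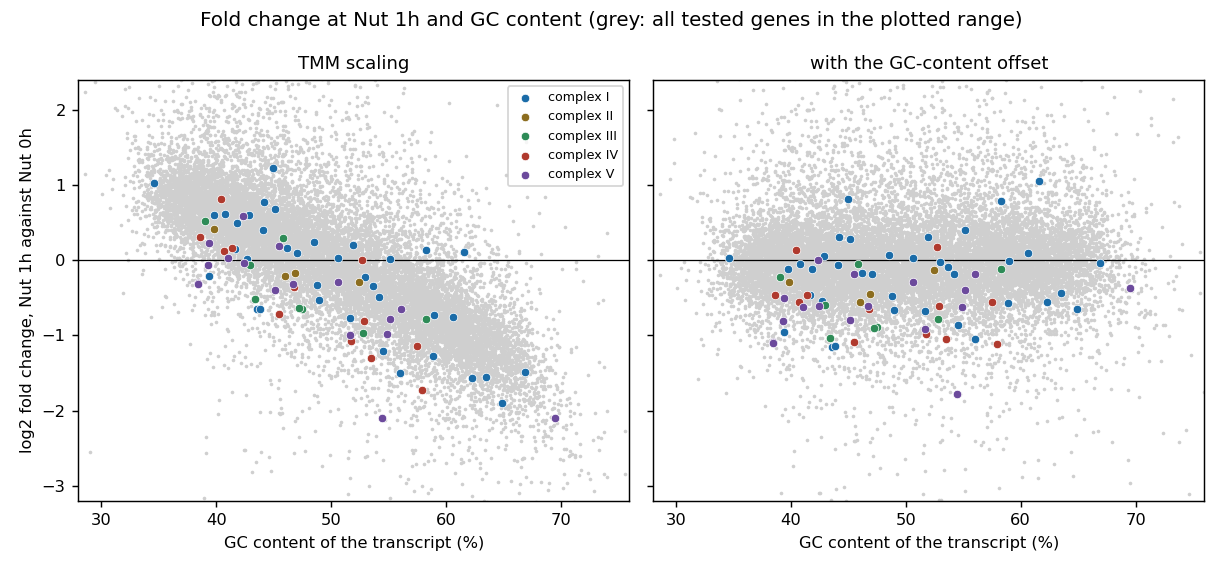
Log2 fold change at Nut 1h against Nut 0h and GC content of the transcript in percent, for the tested members (coloured by complex) and all tested genes in the plotted range (grey), before and after the GC-content offset. Before it the members slope down with a Pearson r of -0.73, and after it most lie below 0, with a median of -0.46.

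Related genes were read from the same fit, in which 34.5% of all tested genes rose and 32.3% fell, or 19.1% and 25.1% with the GC-content offset. The 13 subunits encoded in the mitochondrial genome all had values above 0, with 9 that rose and a median of 0.62. Their summed share of counts was 3.96% and 4.84% with vehicle, 7.54% and 7.28% after 1 h and 5.06% and 5.48% after 10 h, in libraries whose RNA selection (poly-A or total) is not given in the sources used here. With the GC-content offset 8 of the 13 rose and 3 fell. MT-CO1, the subunit with the oxygen-reducing site of complex IV, had 217678 and 264664 with vehicle, 459987 and 455681 after 1 h, and 254353 and 287980.0 after 10 h, and its log2FC was 0.92 (SE 0.12, adjusted p = 8.89e-06). MT-CO2, its neighbour in the same complex, had 0.046 and did not pass, while with the offset it fell, at -0.28. Of 7 subunits or partners outside the naming rule, 2 rose and 2 fell: cytochrome c (CYCS) rose by a log2FC of 0.93, while cytochrome c1 of complex III (CYC1) had -1.16. The offset made these values 0.29 and -0.23, and 2 of the 7 rose and 4 fell. Of 43 assembly factors, which build the complexes without staying in them, 19 rose and 15 fell, with a median of 0.083. With that offset 6 rose and 17 fell, with a median of -0.10, and the balance over all tested genes turned as well.

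The second comparison addressed 10 h of Nutlin-3a against the vehicle. Of the 78 tested members, 6 were lower (7.69%) and 3 were higher (3.85%), whereas 14.9% of all tested genes were lower and 14.1% were higher. The median was -0.034 over the members and 0.00017 over all tested genes. The libraries of the conditions did not overlap for 21 members that were lower and 15 that were higher, against 30.4% and 31% of all tested genes. For the remaining 42 tested members the libraries overlapped.

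NDUFV3 (chr21:44299754-44333414, plus strand), a small accessory subunit of the NADH-binding module, rose furthest, with normalized counts of 1707 and 1577 with vehicle, 1251 and 1357 after 1 h, and 2428 and 2318 after 10 h. The Nut 10h libraries were the highest of the 6 and the Nut 1h libraries the lowest. The log2FC of NDUFV3 was 0.53 (SE 0.09, adjusted p = 0.00078) after 10 h and -0.33 (SE 0.10, adjusted p = 0.00721) after 1 h. Its promoter window, printed above, held none of the 3 sets of letters. NDUFA4 rose, with 2313 and 2298 with vehicle, 1912 and 2063 after 1 h, and 2741 and 2857 after 10 h and a log2FC after 10 h of 0.28 (SE 0.09, adjusted p = 0.0314). COX7A2L (chr2:42560686-42652228, minus strand), which joins complexes III and IV into supercomplexes, had 1750.0 and 1848 with vehicle, 2249 and 2225 after 1 h, and 2149 and 2149.6 after 10 h. Both treated conditions lay above Nut 0h, and the log2FC after 10 h was 0.26 (SE 0.09, adjusted p = 0.0442). In DESeq2 it did not pass (adjusted p = 0.0711).

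ATP5D had the lowest value at Nut 10h, with a log2FC of -0.46 (SE 0.15, adjusted p = 0.0361). Its Nut 10h libraries (9890 and 7466) lay below those of Nut 0h (13737 and 10079), but the spread within each condition was wide. NDUFB10 (chr16:2009539-2011976, plus strand) had 7219 and 6251 with vehicle, 3780.4 and 4372 after 1 h, and 5584 and 4689 after 10 h and a log2FC of -0.39 (SE 0.11, adjusted p = 0.0192). UQCRFS1 was lower in both replicates, and its log2FC was -0.38 (SE 0.10, adjusted p = 0.00894). The 3 other members that fell belong to complex I: NDUFS3, NDUFA6 and NDUFB6. NDUFS3, a core subunit of the ubiquinone module, had 2737 and 2709 with vehicle, 2086 and 2196 after 1 h, and 2256 and 2071 after 10 h, and its log2FC was -0.33 (SE 0.09, adjusted p = 0.0141). NDUFA6, an accessory subunit, had 1857 and 1704 with vehicle, 1923 and 2061 after 1 h, and 1406 and 1469 after 10 h, with a log2FC of -0.31 (SE 0.10, adjusted p = 0.0254). NDUFB6, an accessory subunit of the membrane arm, had 836 and 818 with vehicle, 888 and 945 after 1 h, and 657 and 685 after 10 h, with a log2FC of -0.30 (SE 0.10, adjusted p = 0.0353), and did not pass in DESeq2 (adjusted p = 0.0546). The catalytic subunits ATP5B and ATP5A1 had -0.12 and -0.051 and did not pass, nor did SDHA (0.062), SDHB (-0.12), UQCRC1 (-0.058), COX4I1 (-0.013), COX5A (-0.13), NDUFS1 (0.029) or NDUFV1 (-0.16).

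These few calls changed when single libraries were left out. The number of members lower at Nut 10h in edgeR was 0 without Nut 0h replicate 1 (4 at an unadjusted p of at most 0.05), 3 when either Nut 1h replicate or the second of Nut 10h was left out, and 9 without Nut 10h replicate 1. The number higher was 4 without Nut 10h replicate 1, and 1 when any of the other 5 libraries was left out. With the GC-content offset 7 fell and 4 rose, against 22.9% and 17% of all tested genes. With the GC-content and length offsets 19 fell and 4 rose, against 23.5% and 17.4%, and the median was -0.12.

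Among related genes at Nut 10h, 5 of the 13 subunits of the mitochondrial genome rose, with a median of 0.26. Of 43 assembly factors, 2 rose and 6 fell, the falls near the 14.9% of all tested genes, and 2 rose and 11 fell with the GC-content offset, against 17% and 22.9%. Among 14 tested regulators of mitochondrial biogenesis, 4 fell and 1 rose, against 14.9% and 14.1% of all tested genes, or 6 and 2 with the offset, against 22.9% and 17%. Those that fell included NRF1, with 1139 and 1082 with vehicle, 912 and 1036 after 1 h, and 804 and 692 after 10 h and a log2FC of -0.57 (SE 0.11, adjusted p = 0.00145). YY1 fell as well, with 7646 and 6679 with vehicle, 5366 and 5657 after 1 h, and 5046 and 4845 after 10 h and a log2FC of -0.53 (SE 0.10, adjusted p = 0.00084), and so did PPRC1 (-0.46) and GABPB1 (-0.30). At Nut 1h, 5 of the 14 had risen and 5 had fallen, shares near the 34.5% and 32.3% of all tested genes. TFAM, the packaging and transcription factor of mitochondrial DNA, was among those that rose, with a log2FC of 1.23, and POLRMT, the mitochondrial RNA polymerase, among those that fell, at -1.70. After the offset these values were 0.32 and -0.33. With it, 5 of the 14 rose and 6 fell at Nut 1h, against 19.1% and 25.1% of all tested genes. Members with the NRF1 letters in their promoter window had a median of -0.086 at Nut 10h and members without them -0.031, a description over 21 members with the letters. For the YY1 letters the medians were -0.089 with and -0.043 without, and for the ETS letters they lay the other way, at -0.028 with and -0.057 without. For the 1 h comparison, after the offset on GC content, the medians with and without the letters were -0.61 and -0.46 for NRF1, -0.62 and -0.47 for ETS, and -0.12 and -0.56 for YY1.

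The last comparison set the treated time points against each other. From Nut 1h to Nut 10h, 39 members were higher (50.0%) and 18 lower (23.1%), against 34.2% and 33.7% of all tested genes, with a median of 0.23. The Nut 10h libraries lay wholly above those of Nut 1h for 43 members and wholly below for 26, against 42.1% and 42.9% of all tested genes. COX8A was higher at Nut 10h by a log2FC of 1.70 (SE 0.12, adjusted p = 2.82e-08), ATP5D by 1.65 (SE 0.16, adjusted p = 5.71e-07), NDUFB7 by 1.59 (SE 0.15, adjusted p = 4.30e-07) and COX6B1 by 1.23 (SE 0.10, adjusted p = 2.11e-07). NDUFA5 was lower, at -0.96 (SE 0.10, adjusted p = 9.43e-07), as was COX6C, at -0.73 (SE 0.10, adjusted p = 2.10e-05). UQCRFS1 (0.13 (SE 0.10, adjusted p = 0.253)) and NDUFS3 (0.015 (SE 0.09, adjusted p = 0.894)) did not differ past the threshold between the treated conditions. Both did with the GC-content offset, at 0.61 and -0.29, whereas the differences of ATP5D (0.0096), NDUFA5 (-0.0068) and COX6C (-0.084) did not pass. With that offset 45 members were higher and 11 lower, against 29% and 28.5% of all tested genes, and with both offsets 45 and 9, against 28.9% and 29.2%. These values share the Nut 1h libraries with the comparison of Nut 1h and Nut 0h.

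Complex IV has tissue-specific isoforms, and these were at or near 0 counts in HCT116. COX7B2 had 0 counts in every library, and COX8C, COX4I2 and COX6A2 had at most 1, 3 and 2. COX7A1, the heart and muscle form, had between 2 and 11 counts. COX6B2, the testis form, had normalized counts of 24.2 and 20.7 with vehicle, 9.03 and 11.3 after 1 h, and 21.3 and 25.1 after 10 h, with a log2FC at Nut 1h of -1.14 (SE 0.41, adjusted p = 0.0246) from these low counts and a value of -0.56 that did not pass with the GC-content offset. The broadly expressed forms COX4I1, COX6A1, COX6B1, COX7A2, COX7B and COX8A had at least 1165 normalized counts in every library. The second identifiers of NDUFA7, NDUFB8, SDHD and UQCR11, which overlap the main genes, had at most 4 counts.

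Many of these genes have processed pseudogenes, copies that lack introns and can take reads from the parent. The table held 134 rows named as numbered pseudogenes of members, of which 48 had counts. They amounted to between 0.239% and 0.338% of the counts of the members per library. UQCRFS1P1 had 98 and 81 counts with vehicle, 16 and 10 after 1 h and 63 and 70 after 10 h, so that it was low where UQCRFS1 was low at Nut 1h. COX6A1P2 had 108 and 109 with vehicle, 34 and 30 after 1 h and 127 and 123 after 10 h. Adding the pseudogene counts to their parents left every count of members called in the 3 comparisons as it was.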

How the data were processed

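RNA-seq reads of 6 HCT116 libraries, 2 biological replicates at each of Nut 0h, Nut 1h and Nut 10h, were trimmed by the authors with Trim Galore 0.6.6, aligned to GRCh37.p13 with STAR 2.7.0f and counted per gene with featureCounts (Subread 2.0.0). The deposited values are these raw counts without normalization. The library kit, the strand setting and the treatment of multimapping reads are not given in the sources used here. A deposited table of the authors' own comparisons, with fold changes and p-values, was used for gene symbols only.

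Conditions came from the sample labels. Genes were filtered with filterByExpr (16565 kept), scaled by TMM and fitted in R 4.3.3 with edgeR 4.0.16 (quasi-likelihood test, with limma 3.58.1) over all 6 libraries with the condition as the only term, which left 3 residual degrees of freedom. Benjamini-Hochberg adjustment covered all tested genes, and genes were called at 0.05. DESeq2 1.42.0 was an alternative. Normalized counts express each count at the mean TMM library size. The offsets are loess trends (span 0.4) of each library's deviation on GC content or log2 length of a representative transcript. GRCh37 coordinates and exons came from the GENCODE annotation lifted to that build, and no sequence was read by them. The scripts were tested on simulated data.

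Genes were named by a rule: for each complex and each comparison against Nut 0h, the called members with the largest rise and fall among those whose normalized counts averaged 100 or more and whose libraries did not overlap, together with subunits of the catalytic centres, tissue isoforms and the genes of subunit c. The members and lists were chosen with earlier results of these data known. Other members were named after their values were seen, and 1 member under the rule is not reported here by name. Alternatives were other scalings, filters, offsets and samples, and a replicate block. The authors' chromatin data were not used here.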

Additional observations from a re-analysis of the deposited data

Results flagged for a closer look

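The counts of 25 of 31 tested members under the naming rule differed between Nut 10h and Nut 1h, in edgeR's quasi-likelihood test over 2 libraries each. Both times share the Nut 0h libraries, so a changed effect of Nutlin-3a and a difference of time cannot be told apart. Among all tested genes 34.2% were higher and 33.7% lower at Nut 10h than at Nut 1h. Part of these 25 members had been picked by the size of their change at Nut 1h. In ATP synthase these were ATP5D (1.65 on the log2 scale, adjusted p = 5.71e-07), ATP5G2 (1.03), ATP5G1 (0.66), ATP5G3 (0.29), ATP5A1 (-0.24) and ATP5S (-0.61). In complex IV they were COX8A (1.70, adjusted p = 2.82e-08), COX6B1 (1.23), COX6B2 (1.19, from low counts), COX6A1 (0.97), COX5A (0.58), COX7A2 (0.53), COX7B (-0.23) and COX6C (-0.73). In complex I they were NDUFB7 (1.59, adjusted p = 4.30e-07), NDUFV3 (0.86), NDUFV1 (0.60), NDUFB10 (0.33), NDUFS1 (-0.47) and NDUFA5 (-0.96). In complexes II and III they were SDHA (0.35), SDHD (-0.45), UQCR11 (0.88), UQCRC1 (0.72) and UQCRB (-0.36). Under the GC-content offset 11 of the 25 were called in the same direction and 9 did not pass: ATP5D (0.0096), ATP5A1 (0.088), ATP5S (-0.069), COX6B2 (0.59), COX6C (-0.084), NDUFS1 (0.11), NDUFA5 (-0.0068), SDHA (0.14) and UQCRC1 (0.039). The remaining 5 turned and passed in the other direction: NDUFB10 (-0.40), NDUFV1 (-0.26), SDHD (0.23), UQCRB (0.37) and COX7B (0.37). Without the offset, a value above 0 means that the gene was higher at Nut 10h than at Nut 1h in both libraries.

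Several pseudogene rows, which the comparisons of members did not use, had more counts in both libraries of a treated condition than in either Nut 0h library. COX6A1P2 had 127 and 123 counts at Nut 10h against 108 and 109 at Nut 0h, and SDHAP3 199 and 151 at Nut 1h against 118 and 146. ATP5G1P6 had 7 and 17 counts at Nut 10h against 0 and 1. COX6CP1 had 11 and 5 at Nut 1h against 1 and 1, UQCRHP2 4 and 8 at Nut 1h against 0 and 0, and COX7CP1 5 and 7 after 1 h and 5 and 9 after 10 h against 3 and 3. Such a separation was common. Of all tested genes, 44.2% lay wholly above the vehicle libraries after 1 h, and 31% did so after 10 h. How many pseudogene rows separated was not compared with these shares. Apart from COX6A1P2 and SDHAP3 the listed counts were low, so the list is a description only. The listed rows can share reads with their parent genes.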

How the results depend on the processing

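At Nut 1h the lower members stayed in the majority of calls in every setting run, and the counts of members called lower were within 1.5 times the reported count in all of them. With the GC-content offset, with that offset and the replicate block, and with the GC-content and length offsets, 6, 6 and 4 members were higher and the median was -0.46, -0.46 and -0.45 at Nut 1h. In the same settings the median at Nut 10h was -0.085, -0.086 and -0.12. From Nut 1h to Nut 10h it was 0.37, 0.37 and 0.38, with 11, 9 and 9 members lower. The last of these settings had 19 members lower at Nut 10h. With the length offset alone the medians were -0.18, -0.10 and 0.14 in the order of the comparisons. Without the low-count filter 1 member was higher at Nut 10h, with a median of -0.073, and the median from Nut 1h to Nut 10h was 0.28. In fits of only the 2 conditions compared, 1 member was higher and 3 were lower at Nut 10h.

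Over all 78 tested members, those with values above 0 at Nut 1h numbered 31, and 15 with the GC-content offset. Among the members named by the rule, and called with or without the offset, the direction of 6 at Nut 1h was reversed by the GC-content offset, by it with the replicate block, and by both offsets: COX7A2L (-0.46, -0.46 and -0.43), COX7B (-0.46, -0.46 and -0.43), NDUFS1 (-0.11, -0.11 and -0.18), SDHD (-0.29, -0.29 and -0.27), UQCRB (-0.23, -0.23 and -0.26) and NDUFV1 (0.095, 0.095 and 0.14). The cause was not tested.

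Leaving out each replicate in turn gave 12 to 15 members higher and 31 to 43 lower at Nut 1h, with medians from -0.35 to -0.22. At Nut 10h it gave 1 to 4 higher and 0 to 9 lower, with medians from -0.068 to 0.028. From Nut 1h to Nut 10h it gave 32 to 39 higher and 14 to 17 lower, with medians from 0.23 to 0.32. Where a condition then had 1 library, its spread was assumed to be that of the others.

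The sample numbers in the labels were not taken as a pairing, since the deviations of libraries with the same number had correlations of -0.13, 0.20 and -0.12 between conditions. With the replicate block, 16 members were higher and 40 lower after 1 h, 2 and 6 after 10 h, and 39 and 17 between these times, so that no count moved by over 1.5 times. With the Nut 1h numbers crossed, chosen after seeing the data, the counts were 21 and 44, 9 and 11, and 41 and 22. DESeq2, its size factors, leaving out the mitochondrial genome (added after seeing the data) and adding pseudogene counts kept all counts within 1.5 times. Depth limits the members with under 100 counts in most libraries, such as COX6B2, NDUFA7 and NDUFV2.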

Other observations

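Among the assembly factors, whose counts are given above, the lowest values at Nut 1h were those of PET100, a factor of complex IV, and NDUFAF3, a factor of complex I. PET100 had normalized counts of 187 and 168 with vehicle, 44.1 and 46.6 after 1 h, and 212 and 153 after 10 h, and the log2 fold change (log2FC) after 1 h was -1.97 (SE 0.21, adjusted p = 2.68e-06) in edgeR's quasi-likelihood test. NDUFAF3 had 2613 and 2439 with vehicle, 685 and 688 after 1 h, and 2608 and 1990.5 after 10 h, with a log2FC of -1.88 (SE 0.12, adjusted p = 8.59e-08). In both, the Nut 1h libraries were the lowest of the 6. The order depended on the GC-content offset, with which PET117 (-1.59) lay below PET100 (-1.53) and NDUFAF3 (-1.39). SCO2 had -1.60 in that fit, but no GC content was known for it. Its value was therefore not corrected for its own GC content and is not ranked with these. COA7, a factor of complex IV, rose at Nut 1h, with 847 and 837 with vehicle, 1635 and 1783 after 1 h, and 735 and 804 after 10 h and a log2FC of 1.02 (SE 0.10, adjusted p = 1.20e-06), or 0.66 with the GC-content offset. SCO2, a copper chaperone of complex IV and a known target of p53, fell at both times, with 703 and 563 with vehicle, 226 and 222 after 1 h, and 503 and 370.4 after 10 h. The log2FC of SCO2 was -1.50 (SE 0.16, adjusted p = 2.24e-06) after 1 h and -0.54 (SE 0.15, adjusted p = 0.014) after 10 h. UQCC1, a factor of complex III, rose at Nut 10h, with 1573 and 1656 with vehicle, 1804 and 1889 after 1 h, and 2148 and 2241 after 10 h and a log2FC of 0.44 (SE 0.09, adjusted p = 0.00228). These genes were named after their values were seen.

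Mitochondrial ribosomal protein genes, which translate the subunits of the mitochondrial genome, had 16 of 75 tested genes that fell at Nut 10h, where 56 had values below 0 and the median was -0.12, against 14.9% of all tested genes that fell. After the GC-content offset 31 fell, against 22.9%. At Nut 1h 30 of them rose and 30 fell, against 34.5% and 32.3% of all tested genes, and with the offset 6 rose and 29 fell, against 19.1% and 25.1%. At Nut 10h the cytosolic ribosomal protein genes had 3 of 78 that rose, a smaller share than the 14.1% of all tested genes, and 56 had values above 0.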
